A study of Mus musculus with 18 samples.

Results

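The genes described here are those whose RNA level moved the same way after Kdm6a KO in 2 hybrid ES cell lines, on both days sampled in each line. They were chosen by a rule on the measured values. A gene was kept when its KO/wt ratio was 0.67 or less in all 4 comparisons (Tsix-stop D0, Tsix-stop D15, E8 D7 and E8 D15) with every wt mean at 5 or more, or 1.5 or more in all 4 with every KO mean at 5 or more. Ratios were taken between group means after adding 0.5, in CPM (counts scaled to the total of the library) for Tsix-stop cells and in TPM (also scaled to transcript length) for E8 cells, and genes of the Hox, Rhox, Wnt, Fgf and collagen families were set aside, which removed 0 genes. Of 24346 gene symbols 24 met the rule, 20 lower and 4 higher in KO cells. Because the KO/wt ratios chose these genes, they are given as a description and without a test.

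Tsix-stop cells are female mouse ES cells from a cross of a laboratory strain with Mus castaneus (cast) that carry a transcriptional stop in Tsix on the non-cast X chromosome, in wt, KO and control cells alike, so that this X is the one silenced upon differentiation. Their KO libraries come, per the methods, from 2 clones with a homozygous CRISPR/Cas9 deletion of early exons of Kdm6a (the labels do not tie a library to a clone), and each day has 2 wt libraries, 2 KO libraries and 1 library whose genotype label is CRISPR control and whose title calls it a neg control. The study gives its CRISPR controls as clones that were treated with CRISPR/Cas9 and carry no deletion. E8 cells are female ES cells from a BL6 x cast cross with random X inactivation that favours the BL6 X as the inactive one, and their KO is 1 clone that lacks the Kdm6a promoter on both alleles, with 2 wt and 2 KO libraries a day. Per the methods, both lines were grown with serum and LIF on inactivated embryonic fibroblasts. Differentiation was undirected and without LIF, as embryoid bodies to D7 and as plated cells from then to D15. The study's text gives other days for its E8 RNA-seq, so the culture of the E8 libraries labelled D7 and D15 is not described there.

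KDM6A removes methyl groups from lysine 27 of histone H3 (H3K27me3), a mark laid down by the Polycomb complex PRC2 at silent developmental genes, and works within the MLL3/MLL4 complex that marks enhancers. Loss of the demethylase is therefore studied for genes that fail to switch on, while a KDM6A that lacks its catalytic activity retains other functions in the complex. Kdm6a is X-linked and escapes X inactivation.

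The 250 bases before the annotated start of 5 of these genes are given here, in RefSeq sequence on GRCm38.p6, because they are the promoter deleted in the E8 KO clone (Kdm6a), the promoters of 3 lower genes with large differences (Stra8, Plet1, Copz2), and that of the higher gene with the most reads (Gsto1). The starts are those of RefSeq, and that of Stra8 lies downstream of the start in GENCODE vM21, so that its window falls within the gene as GENCODE gives it. All lie on the plus strand and are written in lower case with each CG dinucleotide, the site of DNA methylation, in capitals.
Kdm6a, chrX:18162325-18162574: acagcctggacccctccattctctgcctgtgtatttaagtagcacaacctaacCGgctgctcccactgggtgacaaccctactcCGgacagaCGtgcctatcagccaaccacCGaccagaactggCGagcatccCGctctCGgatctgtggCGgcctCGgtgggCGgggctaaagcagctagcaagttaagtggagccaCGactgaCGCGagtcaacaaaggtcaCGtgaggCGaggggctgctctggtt
Stra8, chr6:34920698-34920947: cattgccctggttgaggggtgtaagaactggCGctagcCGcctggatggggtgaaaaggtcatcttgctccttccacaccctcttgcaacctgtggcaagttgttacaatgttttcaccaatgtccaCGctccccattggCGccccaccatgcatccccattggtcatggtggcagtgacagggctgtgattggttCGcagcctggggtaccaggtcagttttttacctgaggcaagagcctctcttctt
Plet1, chr9:50494275-50494524: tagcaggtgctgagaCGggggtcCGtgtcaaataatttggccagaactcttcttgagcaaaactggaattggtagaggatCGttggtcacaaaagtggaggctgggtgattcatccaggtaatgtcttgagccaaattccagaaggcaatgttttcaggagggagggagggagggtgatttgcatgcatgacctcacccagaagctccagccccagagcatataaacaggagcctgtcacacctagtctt
Copz2, chr11:96849626-96849875: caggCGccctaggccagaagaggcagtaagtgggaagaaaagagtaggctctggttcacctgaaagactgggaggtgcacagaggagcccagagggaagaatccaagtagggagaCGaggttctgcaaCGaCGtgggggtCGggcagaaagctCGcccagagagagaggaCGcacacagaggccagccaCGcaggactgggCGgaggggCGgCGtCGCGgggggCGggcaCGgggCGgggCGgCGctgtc
Gsto1, chr19:47854723-47854972: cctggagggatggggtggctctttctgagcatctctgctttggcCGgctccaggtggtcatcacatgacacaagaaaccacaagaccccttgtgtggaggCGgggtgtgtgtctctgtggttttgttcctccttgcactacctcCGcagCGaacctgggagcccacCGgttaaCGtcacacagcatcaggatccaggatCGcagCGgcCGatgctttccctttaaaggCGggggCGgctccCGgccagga
The Kdm6a, Copz2 and Gsto1 windows hold 15, 18 and 12 CG dinucleotides, and those of Stra8 and Plet1 hold 5 and 3. RefSeq promoters were found for 20 of the 24 genes by symbol. Their median was 12.5 CG dinucleotides, against 17 over the 7036 promoters of genes with a wt mean of 5 or more in all 4 groups and 6 over all 27025 promoters. GGGCGG stood on either strand in 15 of the 20 (75%), and in 63.8% of the promoters of those expressed genes and 32.9% of all promoters. TATAAA stood in 4 of the 20 (20%), among them Plet1, against 5.19% of expressed and 13% of all promoters, and AGGTCA, a nuclear receptor core motif, stood in 4 (20%), among them Kdm6a, Stra8, Plet1 and Rarg, against 9.65% and 13.8%. CCAAT stood in 5 (25%), against 37.5% and 34.5%. A match to such short letters is a description of the sequence only.

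The Tsix-stop libraries held 51091152 to 68796179 estimated counts, and every one of the 24 genes had at least 20 counts in each of them. The depth of the E8 libraries is unknown, since they were deposited as TPM. Per the methods the Tsix-stop wt libraries are biological replicates and the Tsix-stop KO libraries are different clones, so the spread within KO takes in differences between clones. For the E8 libraries of these days nothing in the sources used here says that replicates came from separate cultures, and p-values there measure only the spread between these libraries, which lay very close together. Pou5f1, a defining gene of pluripotent cells, was read in every library. It stood at 665 CPM or more in Tsix-stop cells and 846 TPM or more in E8 cells. E8 wt libraries had 1729 and 1625 TPM of it at D7, and 1865 and 2044 TPM at D15. E8 KO libraries had 848 and 846 TPM at D7, and 1009 and 984 TPM at D15. At Tsix-stop D15 the order was the other way, with 665 and 847 CPM in wt against 1297 and 1147 CPM in KO. In bulk RNA, fewer cells of a type and less RNA per cell cannot be told apart.

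The 2 lines agreed on few genes. Of 9060 genes with a wt mean of 5 or more in all 4 groups, 135 (1.49%) were past the lower limit in both Tsix-stop comparisons and 501 (5.53%) in both E8 comparisons. The 20 genes lower in all 4 are 14.8% of the former and 3.99% of the latter. A larger number, 36 of the 135 (26.7%), were lower in both Tsix-stop comparisons and higher in both E8 comparisons. More of the 9060 genes, 666, were higher in both E8 comparisons, and the 36 are 5.41% of these. On the other side, 90 of 9120 genes (0.987%) were past the upper limit in both Tsix-stop comparisons and 808 (8.86%) in both E8 comparisons. The 4 genes higher in all 4 are 4.44% of the first set and 0.495% of the second. Of the 90, 13 (14.4%) were lower in both E8 comparisons. Over single comparisons, the share of genes at 0.67 or less was 7.04% at Tsix-stop D0, 17.6% at Tsix-stop D15, 14.9% at E8 D7 and 9.28% at E8 D15, and the share at 1.5 or more was 8.33%, 12.2%, 24.9% and 16.7%.

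**Figure D1:**
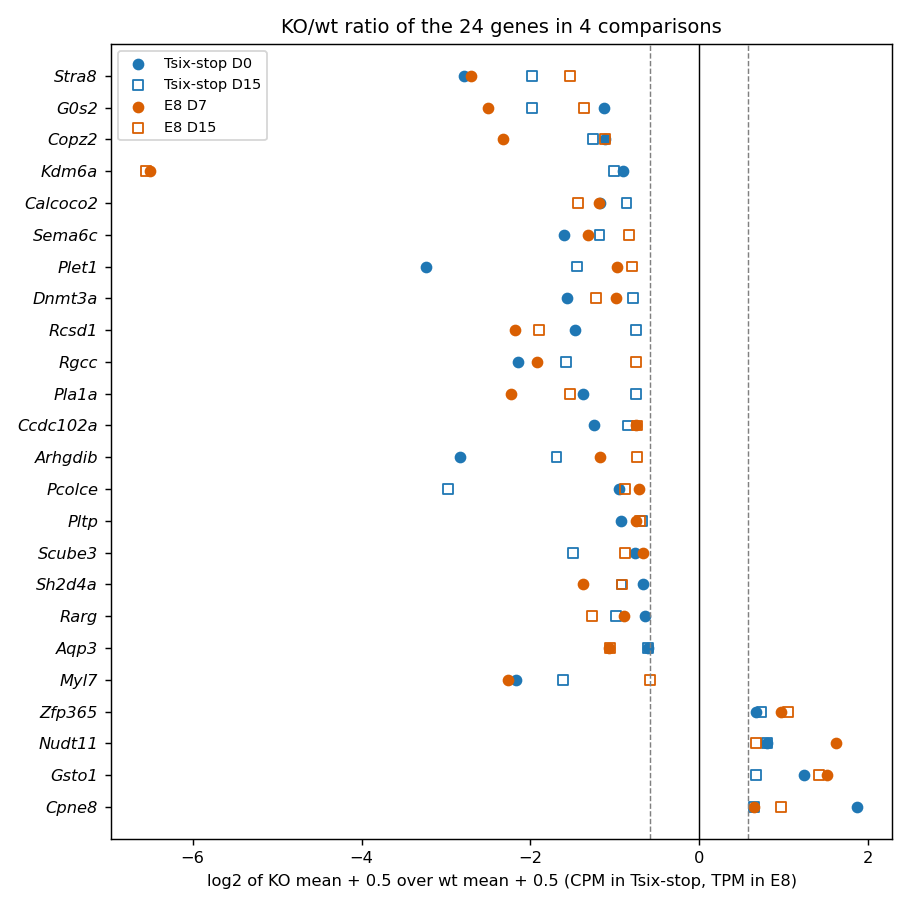
The log2 of the KO/wt ratio is plotted for each of the 24 genes in the 4 comparisons (circles: D0 or D7; squares: D15; blue: Tsix-stop; orange: E8), with dashed lines at ratios of 0.67 and 1.5. Kdm6a in E8 lies far to the left at -6.51 and -6.55.

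The median log2 ratio of the 20 lower genes was -1.21 at Tsix-stop D0, -1.1 at Tsix-stop D15, -1.25 at E8 D7 and -0.99 at E8 D15, beside medians of 0.056, 0.086, 0.099 and 0.05 over the 9060 genes. The weakest of a gene's 4 ratios was most often that at E8 D15 (7 of 20 genes) and the strongest most often that at Tsix-stop D0 (8 of 20). Both KO libraries lay below both wt libraries for 19 of the 20 at Tsix-stop D0, where this was so for 22.8% of all genes at 5 CPM or more in wt, and for 20 of 20 in each other comparison, where the share of all genes was 36.1% at Tsix-stop D15, 39.4% at E8 D7 and 38.5% at E8 D15. The exception was Sh2d4a. The 4 higher genes had both KO libraries above both wt libraries throughout, as did 37.3%, 41.7%, 57.6% and 53.2% of all genes in the same order. The rule used these comparisons, so nothing is read from these shares.

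Kdm6a (chrX:18162575-18279936, mm10) itself checks the KO labels in E8 cells, and in Tsix-stop cells only in part. In E8 cells wt libraries had 46.7 and 47.2 TPM at D7 and 47.8 and 47.5 TPM at D15, and the 4 KO libraries had between 0.00578 and 0.0319 TPM, so the promoter deletion left almost no transcript and the ratio is set by the added 0.5. In Tsix-stop cells the wt libraries had 130.6 and 193 CPM at D0 and the KO libraries 125 and 48.0 CPM. At D15 wt libraries had 143 and 114 CPM and KO libraries 97.6 and 29.8 CPM. KO replicate 1 therefore lay below the lower wt library on both days and KO replicate 2 further below it. The gene-level counts take in exons outside the deletion, so they check the Tsix-stop deletion only in part. In the library labelled CRISPR control Kdm6a stood at 119 CPM at D0 and 100.5 CPM at D15, beside 125 and 97.6 CPM in KO replicate 1. The level of Kdm6a therefore does not tell KO replicate 1 from the control. Without KO replicate 2 at D0, or without KO replicate 2 at D15, Kdm6a did not meet the rule.

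**Figure D2:**
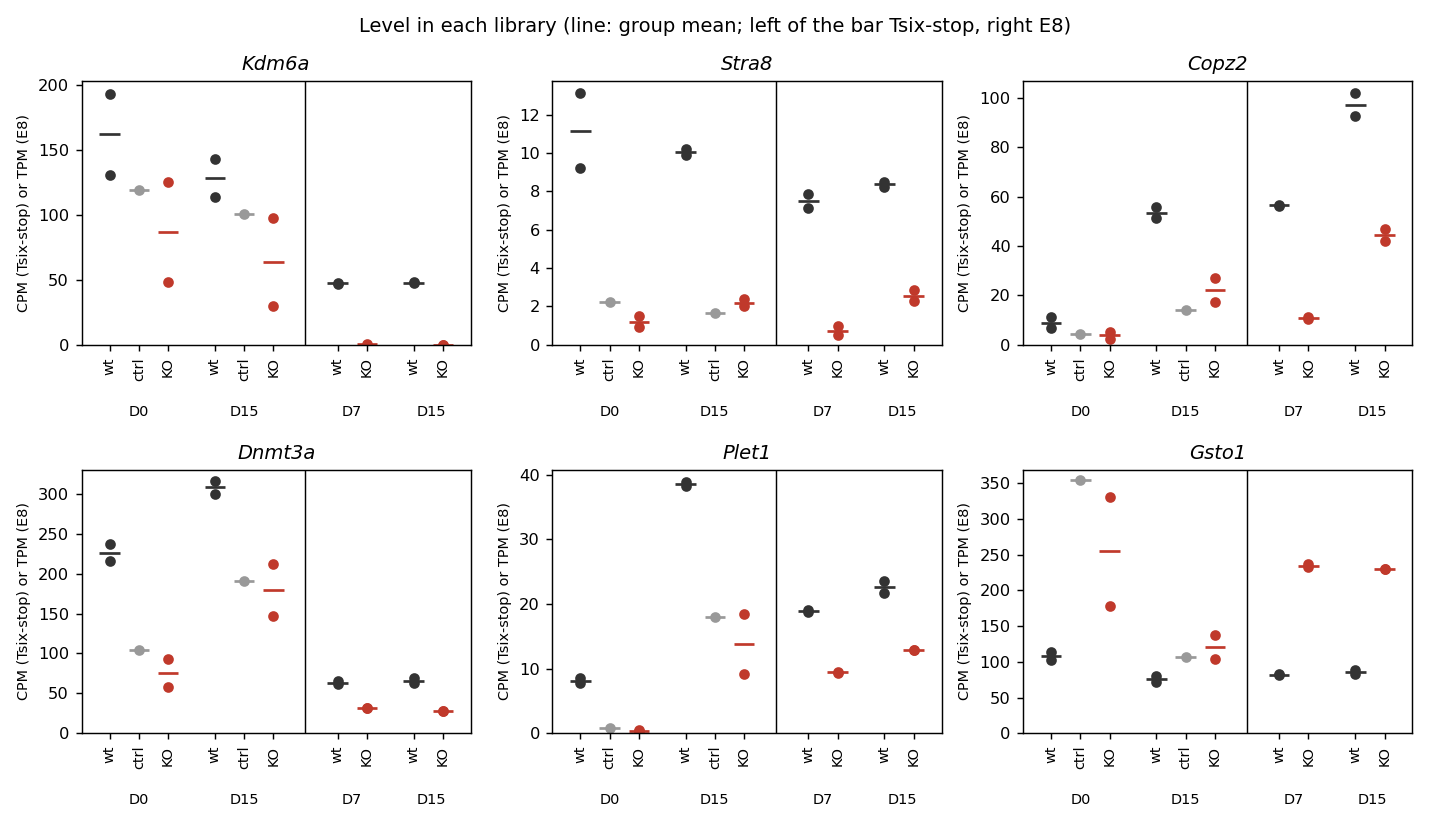
Levels of Kdm6a, Stra8, Copz2, Dnmt3a, Plet1 and Gsto1 in every library are plotted as points on linear axes from 0 (CPM for Tsix-stop on the left of each panel, TPM for E8 on the right), with group means as short lines, wt in black, CRISPR control in grey and KO in red. The KO points of the first 5 genes lie below the wt points of the same day and those of Gsto1 lie above them.

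Among regulators of transcription and chromatin, Stra8 (chr6:34920163-34939344, mm10), a retinoic acid-inducible gene needed for entry into meiosis, had the largest difference that all 4 comparisons reached. In Tsix-stop cells Stra8 stood at 13.1 and 9.20 CPM in wt against 1.49 and 0.911 CPM in KO at D0, and at 10.2 and 9.92 CPM in wt against 2.37 and 2.00 CPM in KO at D15. In E8 cells it stood at 7.14 and 7.86 TPM in wt against 0.511 and 0.948 TPM in KO at D7, and at 8.50 and 8.23 TPM in wt against 2.28 and 2.84 TPM in KO at D15. No KO library reached 3 CPM or 3 TPM and no wt library fell under 7, and the log2 ratios were -2.78, -1.98, -2.7 and -1.53. Rarg, which encodes the retinoic acid receptor gamma, had smaller differences, with log2 ratios of -0.64, -0.98, -0.89 and -1.27 in the same order. Its E8 levels at D15 were 34.1 and 36.4 TPM in wt against 14.2 and 14.6 TPM in KO.

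Dnmt3a (chr12:3806007-3914443, mm10), a de novo DNA methyltransferase that is on the list of primed pluripotency genes, had 215.9 and 237 CPM in wt against 93.5 and 58.4 CPM in KO at Tsix-stop D0. At Tsix-stop D15 it had 300.4 and 316 CPM in wt against 212.5 and 147 CPM in KO. In E8 cells it had 65.3 and 61.9 TPM in wt against 32.0 and 31.6 TPM in KO at D7, and 62.9 and 68.8 TPM in wt against 28 and 28.1 TPM in KO at D15. KO and wt libraries did not overlap in any comparison. Dnmt3b, the other de novo enzyme and not one of the 24, had log2 changes of -0.52 ± 0.11 (SE; edgeR adjusted p = 0.018), 0.12 ± 0.11 (edgeR adjusted p = 0.40), 0.01 ± 0.04 (limma adjusted p = 0.81) and 0.10 ± 0.04 (limma adjusted p = 0.049) in the 4 comparisons, none of them 2-fold. Zfp365, a zinc finger gene and 1 of the 4 higher genes, had 11.3 and 11 CPM in wt against 18.5 and 17.8 CPM in KO at Tsix-stop D0, and 4.79 and 5.22 TPM in wt against 10.3 and 10.2 TPM in KO at E8 D7. Its log2 ratios of 0.68, 0.74, 0.97 and 1.05 were the most even among the higher genes.

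Several of the lower genes encode surface or secreted proteins. Plet1 (chr9:50494525-50505482, mm10), a surface protein of the placenta and early trophoblast, went from 7.81 and 8.47 CPM in wt to 0.320 and 0.510 CPM in KO at Tsix-stop D0. At D15 it stood at 38.8 and 38.2 CPM in wt against 9.12 and 18.4 CPM in KO. In E8 cells it stood at 19.1 and 18.7 TPM in wt against 9.49 and 9.37 TPM in KO at D7, and at 21.7 and 23.6 TPM in wt and 12.9 TPM in both KO libraries at D15. The difference was therefore far larger at Tsix-stop D0 (log2 ratio -3.24) than in E8 (-0.97 and -0.79). Pcolce, an enhancer of procollagen processing, was largest at Tsix-stop D15 instead, with 150 and 158 CPM in wt, 18.8 and 19.5 CPM in KO and a log2 ratio of -2.98, while its other ratios lay between -0.95 and -0.71.

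Sema6c, a transmembrane semaphorin of axon guidance, had 12.7 and 14.4 CPM in wt against 4.59 and 3.69 CPM in KO at Tsix-stop D0, and 8.42 and 7.84 TPM in wt against 3.06 and 2.86 TPM in KO at E8 D7. Pla1a, a secreted phospholipase that acts on phosphatidylserine, had 43.9 and 39.2 CPM in wt against 10.2 and 21.2 CPM in KO at Tsix-stop D0, and 32.9 and 29.9 TPM in wt against 6.72 and 5.93 TPM in KO at E8 D7. Both had their smallest ratios on a D15, with log2 ratios of -0.83 for Sema6c in E8 and -0.75 for Pla1a in Tsix-stop cells. Pltp, which transfers phospholipids between lipoproteins, had the narrowest range, with log2 ratios from -0.93 to -0.68. Scube3, a secreted protein with EGF-like domains, ranged from -1.49 to -0.67. Aqp3, a water and glycerol channel, was near the limit in Tsix-stop cells (-0.6 and -0.61) and at -1.07 and -1.06 in E8 cells.

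The remaining lower genes encode proteins of lipid storage, transport, the cytoskeleton and signalling. G0s2, an inhibitor of the lipase that opens fat stores, had 11.2 and 5.81 CPM in wt against 3.90 and 3.29 CPM in KO at Tsix-stop D0 and 7.49 and 8.77 CPM in wt against 1.92 and 1.45 CPM in KO at D15. In E8 cells it had 13.0 and 10.9 TPM in wt against 1.62 and 1.78 TPM in KO at D7, and 22.0 and 20.6 TPM in wt against 8.44 and 7.60 TPM in KO at D15. Its libraries did not overlap on any day, although the wt libraries at Tsix-stop D0 were far apart.

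Copz2 (chr11:96849870-96861203, mm10), a subunit of the vesicle coat COPI, had 11 and 6.54 CPM in wt against 5.26 and 2.36 CPM in KO at Tsix-stop D0 and 51.5 and 55.6 CPM in wt against 27.1 and 17.1 CPM in KO at D15. In E8 cells it had 56.4 TPM in both wt libraries and 11.3 and 10.5 TPM in KO at D7, and 92.7 and 102 TPM in wt against 41.8 and 46.9 TPM in KO at D15. Calcoco2, a receptor that brings cargo to autophagosomes, had 713 and 664 CPM in wt against 434 and 175 CPM in KO at Tsix-stop D0, and 40.3 and 42.6 TPM in wt against 14.6 and 15.6 TPM in KO at E8 D15. The genes Stra8, G0s2 and Copz2 are the 3 whose KO/wt ratio was 0.5 or less in all 4 comparisons.

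Rcsd1, which encodes a partner of the actin capping protein CapZ, had 45.0 and 42.0 CPM in wt against 17.0 and 13.7 CPM in KO at Tsix-stop D0, and 14.3 and 13.6 TPM in wt against 2.87 and 2.52 TPM in KO at E8 D7. Its E8 ratios (-2.18 and -1.9) were larger than its Tsix-stop ratios (-1.47 and -0.75). Arhgdib had the opposite order, from 6.89 and 8.55 CPM in wt to 0.432 and 0.880 CPM in KO at Tsix-stop D0 (-2.83) and from 5.94 and 5.85 TPM in wt to 3.35 and 3.33 TPM in KO at E8 D15 (-0.74). Rgcc, a regulator of the cell cycle, had log2 ratios of -2.15, -1.58, -1.92 and -0.75. Ccdc102a had -1.24, -0.84, -0.75 and -0.74.

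Sh2d4a, an adaptor with an SH2 domain, was the 1 lower gene whose groups overlapped, at Tsix-stop D0, with 6.77 and 3.84 CPM in wt against 1.98 and 4.35 CPM in KO. Myl7, the atrial myosin light chain, had 7.40 and 5.81 CPM in wt against 1.18 and 0.973 CPM in KO at Tsix-stop D0, and 11.2 and 8.35 TPM in wt against 5.96 and 6.74 TPM in KO at E8 D15. Its E8 D15 ratio (0.668) was the value nearest to the limit among the lower genes, ahead of 0.66 for Aqp3 at Tsix-stop D0, and the first genes beyond the limit were Bmf (0.676 at Tsix-stop D0) and Lrmp (0.694 at E8 D15). Pcolce, Pltp, Scube3, Sh2d4a and Rarg are described here although they were picked after their values were seen.

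Of the higher genes, Gsto1 (chr19:47854970-47864790, mm10), a glutathione transferase that reduces dehydroascorbate and arsenic compounds, had 102 and 114 CPM in wt against 331 and 179 CPM in KO at Tsix-stop D0, and 71.1 and 79.8 CPM in wt against 137 and 104 CPM in KO at D15. In E8 cells it had 82.2 and 81.0 TPM in wt against 237 and 232.5 TPM in KO at D7, and 83.1 and 88.1 TPM in wt against 229 and 230.5 TPM in KO at D15. Cpne8, a copine that binds membrane phospholipids with calcium, had 1.00 and 2.00 CPM in wt against 6.67 and 6.98 CPM in KO at Tsix-stop D0, and 6.24 and 4.85 CPM in wt against 7.84 and 10.1 CPM in KO at D15. Nudt11, an X-linked hydrolase of inositol pyrophosphates, had 8.08 and 6.10 CPM in wt against 12.6 and 13.0 CPM in KO at Tsix-stop D0, and 7.51 and 8.29 TPM in wt against 25.7 and 25.2 TPM in KO at E8 D7. Nudt11 has a near-identical neighbour, Nudt10, with which it may share reads. Just inside the limit were Gsto1 (1.592) and Cpne8 (1.569), both at Tsix-stop D15, and just outside were Panx1 (1.422 at Tsix-stop D15) and Tmem237 (1.40 at E8 D15).

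The library labelled CRISPR control was not used by the rule, and at most of these genes it lay away from wt. At D0 it was below both wt libraries for 18 of the 20 lower genes, where 39.6% of all genes at 5 CPM or more in wt were, with Pcolce (87.4 CPM) and Sh2d4a (7.18 CPM) as exceptions. At D15 it was below both for 19 of 20, where 36.9% of all genes were, with Rgcc (8.10 CPM) as the exception. It was above both wt libraries for all 4 higher genes on both days, as were 38.7% of all genes at D0 and 49% at D15. The median log2 of control over wt was -1.35 at D0 and -1.12 at D15 for the lower genes and 0.97 and 0.59 for the higher genes. These ratios share their wt libraries with the KO/wt ratios that chose the genes, so the counts are no independent evidence.

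**Figure D3:**
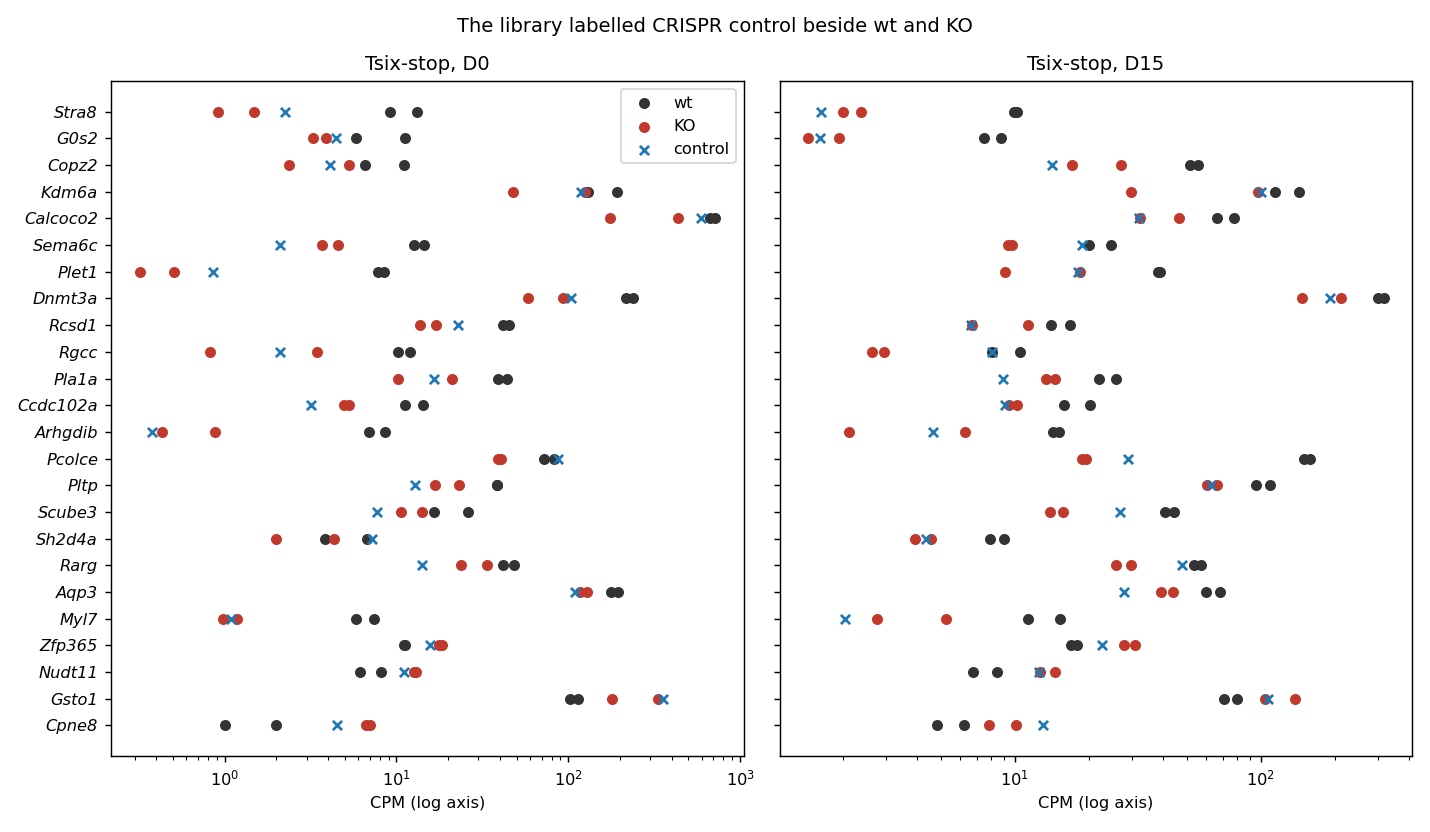
CPM of the 24 genes in each Tsix-stop library is plotted on log axes at D0 (left) and D15 (right), with wt in black, KO in red and the library labelled CRISPR control as a blue cross. The cross lies among or beside the red points for most genes, such as Stra8 (2.24 CPM at D0 and 1.63 CPM at D15).

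On the log2 scale the control lay nearer to the KO mean than to the wt mean for 16 of the 20 lower genes at D0, where 59.6% of all genes at 5 CPM or more in wt did so, and for 15 at D15, where 50.2% did so. It did so for all 4 higher genes on both days, beside 59.3% and 49.4% of all genes at 5 CPM or more in KO. Stra8 stood at 2.24 and 1.63 CPM in the control, Plet1 at 0.859 and 18.0 CPM, Dnmt3a at 104 and 191 CPM and Gsto1 at 355 and 106.5 CPM, at D0 and D15. Rarg (47.7 CPM), Sema6c (18.7 CPM) and Scube3 (26.7 CPM) were among those nearer to wt at D15. With the control in place of wt in Tsix-stop cells, 1 of the 20 lower genes (Pcolce) and 0 of the 4 higher genes met the rule. The names of the deposited control files carry the word KO, while their labels call them neg control and CRISPR control. The labels were followed, and with 1 control library a day no test was run.

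The change between the days, averaged over wt and KO, was tested as a contrast other than those of the rule. It is computed from the same libraries, and the rule also needed every wt or every KO mean to be at 5 or more, so calls are given over all genes and over the 9451 genes that met this minimum. In Tsix-stop cells, where D15 was compared with undifferentiated D0, 9 of the 24 genes changed (edgeR quasi-likelihood test, FDR of 0.1 or less and at least 2-fold), 6 upward and 3 downward, where 31.5% of 13121 genes were called, 21.9% upward and 9.63% downward. Over the 9451 genes 17.9% were called, 10.1% upward and 7.84% downward. Plet1 rose the most (log2 3.51 ± 0.24 (SE), edgeR adjusted p = 3.9e-06), followed by Copz2 (2.44 ± 0.29, edgeR adjusted p = 6.7e-05), and Arhgdib, Pltp, Myl7 and Cpne8 rose by 1.67, 1.41, 1.32 and 1.01. Calcoco2 (-3.23 ± 0.28, edgeR adjusted p = 1.2e-05), Aqp3 (-1.68 ± 0.09, edgeR adjusted p = 1.2e-06) and Rcsd1 (-1.26 ± 0.18, edgeR adjusted p = 2.0e-04) fell. Stra8 (0.23 ± 0.21, edgeR adjusted p = 0.34) and Rarg (-0.01 ± 0.12, edgeR adjusted p = 0.95) did not pass the test. The average hides differences between the genotypes in some of these genes, given here without a test because they follow from the ratios of the rule. The log2 change was 1.73 in wt and 0.29 in KO for Cpne8, 0.78 and 2.56 for Arhgdib, 0.86 and 1.79 for Myl7 and 2.09 and 4.93 for Plet1. Pcolce, not called on average, had a change of 0.84 in wt and -1.17 in KO.

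In E8 cells, where the interval ran from D7 to D15, 1.42% of 12452 genes were called, 0.731% upward and 0.691% downward, and 6 of the 24 genes rose (limma on log2(TPM + 1), same thresholds), while 0 of the 24 fell. Over the 9451 genes 0.529% were called, 0.317% upward and 0.212% downward. Rgcc rose by 1.64 ± 0.03 (limma adjusted p = 3.0e-07), Copz2 by 1.35 ± 0.05 (limma adjusted p = 1.3e-06), G0s2 by 1.26 ± 0.06 (limma adjusted p = 5.1e-06), Sh2d4a by 1.12, Aqp3 by 1.04 ± 0.04 (limma adjusted p = 2.0e-06) and Pltp by 1.02. Copz2 and Pltp thus rose in both lines, and Aqp3 fell in Tsix-stop cells and rose in E8 cells. The log2 change was larger in KO than in wt for Copz2 (0.77 in wt and 1.93 in KO), G0s2 (0.79 and 1.74), Rgcc (1.12 and 2.17) and Sh2d4a (0.93 and 1.31), and near the same for Pltp (0.99 and 1.05). Averaging also left out Stra8 (0.14 and 1.05) and Nudt11 (-0.12 and -1.05). Of the 6 genes that rose, Copz2, G0s2, Sh2d4a and Pltp were under 2-fold in wt alone. These differences between the genotypes follow from the ratios of the rule and are given without a test. In E8 wt cells alone Aqp3 went from 42.6 and 39.5 TPM to 81.1 and 90.6 TPM, and in KO cells from 19.5 and 19.1 TPM to 41.0 and 40.6 TPM, with every KO library below every wt library of its day. The 2 lines were sampled over different days, and no test compared them.

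**Figure D4:**
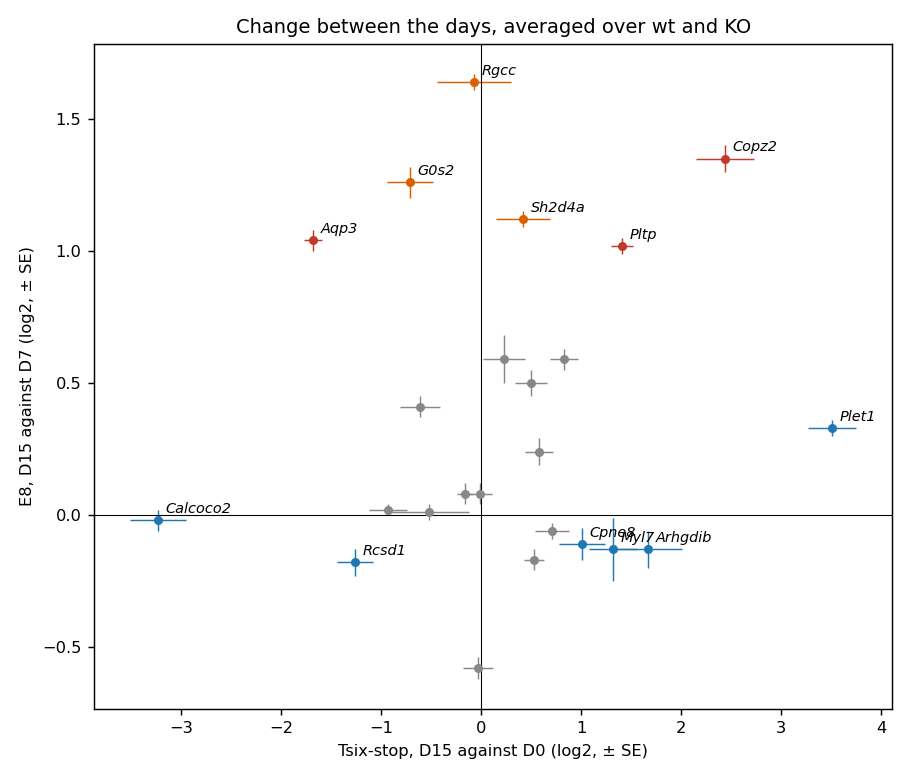
The log2 change between the days, averaged over wt and KO, is plotted for the 24 genes in Tsix-stop cells (D15 against D0, horizontal) and E8 cells (D15 against D7, vertical), with bars for the SE. Red points are called in both lines, blue in Tsix-stop cells only, orange in E8 cells only and grey in neither; Copz2 and Pltp lie at the upper right and Aqp3 at the upper left.

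The balance between the alleles was not used by the rule either. In Tsix-stop cells it was tested on reads over SNPs for the 21 genes with enough of them (Myl7, Pla1a and Plet1 had too few), and the non-cast to cast ratio differed between KO and wt in 4 genes at D0, 1 toward the non-cast allele and 3 toward cast, and in 1 gene at D15, toward cast (edgeR, FDR of 0.1 or less and at least 2-fold). Of all 12298 genes 5.29% were called at D0 (4.64% toward the non-cast allele and 0.642% toward cast) and 4.99% at D15 (4.38% and 0.61%). In E8 cells 23 genes were tested, and 6 were called at D7, 5 toward BL6 and 1 toward cast, and 5 at D15, all toward BL6. Of all 11541 genes 11.3% were called at D7 (7.43% and 3.85%) and 10% at D15 (6.52% and 3.49%). The E8 test adds 1 TPM to each allele, which pulls the ratio of a gene with little RNA toward equality, so there it depends on the level that the rule used. Called E8 genes with an allele at 0 TPM in some library (Kdm6a, Pla1a and Rgcc) are not read for this reason.

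Dnmt3a was called in both lines. At Tsix-stop D0 wt libraries held 394 and 404 reads with non-cast SNPs and 1038 and 1100 with cast SNPs, and KO libraries held 323 and 217 with non-cast SNPs and 321 and 255 with cast SNPs. The non-cast share was thus 27.2% ± 0.461 (SD, n = 2) in wt and 48.1% ± 2.96 (SD, n = 2) in KO, and the log2 ratio of the alleles rose by 1.32 ± 0.11 (SE, edgeR adjusted p = 8.7e-08). At D15 the share was 34.6% ± 0.0782 (SD, n = 2) in wt and 43.5% ± 1.7 (SD, n = 2) in KO, a log2 difference of 0.53 ± 0.09 (SE, edgeR adjusted p = 5.5e-04) that is under 2-fold. As a share of the library, cast reads went from 15.1 and 17.8 CPM in wt to 5.14 and 3.94 CPM in KO at D0, and non-cast reads from 5.73 and 6.52 CPM to 5.17 and 3.35 CPM, so the difference was larger on the cast allele.

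In E8 cells BL6 reads of Dnmt3a gave 4.61 and 4.86 TPM in wt against 4.68 and 4.81 TPM in KO at D7, and cast reads gave 57.2 and 66.1 TPM in wt against 14.7 and 15.7 TPM in KO. At D15 the BL6 values were 3.78 and 4.47 TPM in wt against 4.42 and 4.64 TPM in KO, and the cast values 62.6 and 63.9 TPM in wt against 16.9 and 18.2 TPM in KO. The BL6 values of wt and KO overlapped on both days while the cast values did not, and the log2 ratio rose by 1.83 ± 0.08 (SE, limma adjusted p = 4.9e-06) at D7 and 1.91 ± 0.08 (SE, limma adjusted p = 4.0e-06) at D15. The deposited BL6 values were low throughout, with a median BL6 share of 16.9% to 19.9% over autosomal genes, so the levels of BL6 and cast cannot be compared directly. In the library labelled CRISPR control the non-cast share of Dnmt3a was 29% (95% Wilson interval 25.9 to 32.3) at D0, beside 27.5% (25.3 to 29.9) and 26.9% (24.7 to 29.2) in the wt libraries, although its level of 104 CPM lay near that of KO.

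**Figure D5:**
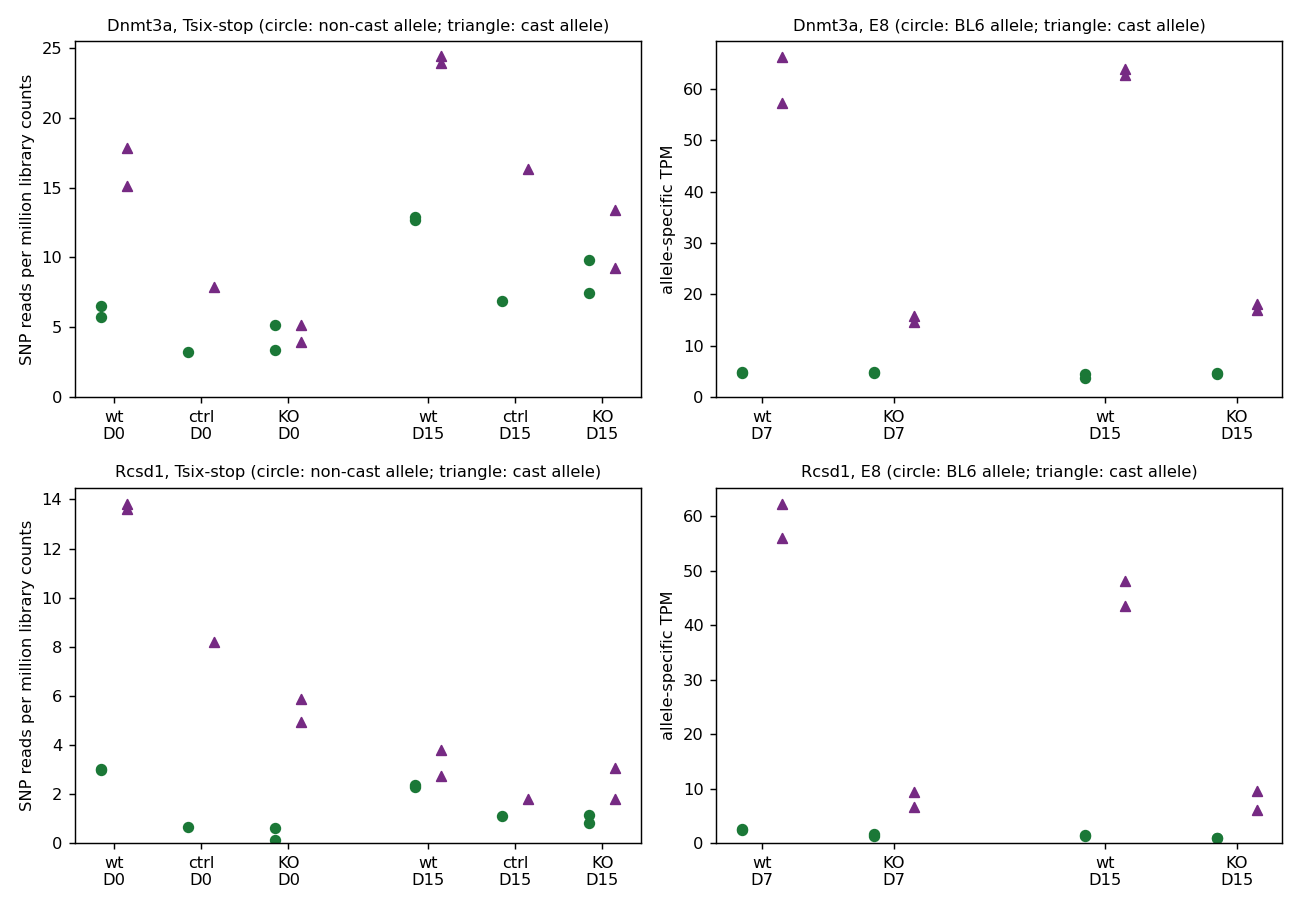
Allele-specific levels of Dnmt3a (top) and Rcsd1 (bottom) are plotted for every library, as SNP reads in CPM in Tsix-stop cells (left) and as allele-specific TPM in E8 cells (right), with circles for the non-cast allele and triangles for the cast allele. The triangles of Dnmt3a drop from wt to KO in both lines, to 5.14 and 3.94 at Tsix-stop D0, while the circles move less.

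Rcsd1 was called in both lines with opposite signs. At Tsix-stop D0 the non-cast reads were 208 and 185 in wt and 40 and 9 in KO, and the cast reads 949 and 845 in wt and 367 and 319 in KO, a log2 ratio lower by 1.63 (value -1.63 ± 0.31 (SE), edgeR adjusted p = 0.0015). In E8 cells the log2 ratio of BL6 to cast was higher in KO by 2.14 ± 0.26 (SE, limma adjusted p = 0.0012) at D7 and 2.17 ± 0.26 (SE, limma adjusted p = 0.0012) at D15, with cast values of 56.1 and 62.2 TPM in wt against 9.42 and 6.63 TPM in KO at D7 and BL6 values between 1.35 and 2.72 TPM. So the non-cast allele lost more in Tsix-stop cells and the cast allele lost more in E8 cells. The control had 47 reads with non-cast SNPs and 563 with cast SNPs at D0, a share of 7.70% (95% Wilson interval 5.84 to 10.1), between the 2 KO libraries (9.83% and 2.74%) and below wt (18% in each).

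At E8 D7, G0s2 was called toward BL6 (1.14 ± 0.27 (SE), limma adjusted p = 0.027). Arhgdib was called the same way (1.26 ± 0.29 (SE), limma adjusted p = 0.022). The call of G0s2, whose BL6 values in KO were 0.239 and 1.43 TPM, was lost with 0.1 TPM added. Neither was called at E8 D15 (0.2 ± 0.27 for G0s2 and -0.45 ± 0.29 for Arhgdib). G0s2 had a lower non-cast share in KO on both Tsix-stop days (log2 ratio -2.04 ± 0.4 (SE), edgeR adjusted p = 0.0019 at D0; -1.79 ± 0.45, edgeR adjusted p = 0.01 at D15), from 108 and 36 reads with non-cast SNPs in wt to 10 and 7 in KO at D0, against 113 and 52 cast reads in wt and 39 and 44 in KO. Arhgdib was called at Tsix-stop D0 (-1.69 ± 0.5 (SE), edgeR adjusted p = 0.042) with 11 and 20 SNP reads in the KO libraries. Nudt11 was called at E8 D7 (-1.35 ± 0.29 (SE), limma adjusted p = 0.018) and not at D15 (-0.11 ± 0.29). Its BL6 values at D7 were 0.986 and 1.16 TPM in wt and 3.07 and 1.95 TPM in KO. Those of wt are near the added 1 TPM, so this call depends on the level that the rule used. Gsto1 was higher on both alleles: at Tsix-stop D0 its non-cast reads averaged 5.17 CPM in wt and 12 CPM in KO, its cast reads 28.7 CPM and 65.4 CPM, and the ratio of the alleles differed by 0.03 ± 0.1 (SE, edgeR adjusted p = 0.94). Kdm6a in Tsix-stop cells did not pass the test at either day (-0.09 ± 0.33 (SE), edgeR adjusted p = 0.95 at D0), with the non-cast share at 43.5% (95% Wilson interval 39.5 to 47.5) in KO replicate 1 and 71.5% (66.1 to 76.4) in KO replicate 2.

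Of the 11 genes on the list of KDM6A and the MLL3/MLL4 complex, 0 were called at Tsix-stop D0 (edgeR, FDR of 0.1 or less and at least 2-fold), 1 was lower at Tsix-stop D15 (Kdm6b, the related demethylase), and 1 was lower at E8 D7 and at E8 D15, Kdm6a itself (limma). Of 11 PRC2 subunits tested, Phf1 was lower and Phf19 higher at Tsix-stop D15, Phf1 was higher at E8 D7, and 0 were called in the other comparisons. Over all genes, 8.07%, 14.8%, 17.5% and 10.7% were called in the 4 comparisons, so counts this small are not set apart from the background. Of the 24 genes, 4 were on any of the fixed lists: Kdm6a, Dnmt3a, Myl7 and Plet1. On the cardiac list of Myl7, 7 of 8 genes tested were lower at Tsix-stop D15, and 2 were lower and 1 higher at D0. The list summed to 121 and 150 CPM in wt, 43.8 and 32.3 CPM in KO and 31.5 CPM in the CRISPR control at D15. That sum does not tell KO from the control. In E8 cells 2 of 4 were lower at D7, and at D15 0 were lower and 1 was higher. On the core and primed pluripotency list of Dnmt3a, 2 of 10 were lower and 1 higher at Tsix-stop D0. At Tsix-stop D15 1 was higher, and in E8 cells 1 was lower on each day.

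Markers of visceral endoderm and of fibroblasts moved in opposite directions in the 2 lines. Over all 13121 genes tested in Tsix-stop cells, 653 were lower and 406 higher at D0, and 1438 lower and 510 higher at D15. Over all 12452 genes tested in E8 cells, 770 were lower and 1414 higher at D7, and 383 lower and 955 higher at D15. Of 13 visceral endoderm genes tested, 11 were lower in KO at Tsix-stop D15 and 0 higher, and of 14 tested in E8, 13 were higher on each day and 0 lower. Their summed level was 730 and 759 CPM in wt against 68.7 and 47.4 CPM in KO at Tsix-stop D15, 44.4 and 43.1 TPM in wt against 1686 and 1676 TPM in KO at E8 D7, and at most 12.4 CPM in every Tsix-stop library at D0. Of 13 fibroblast genes 12 were lower at Tsix-stop D15, and of 9 in E8 6 were higher at D7 and 7 at D15, with 1 lower on each day. Naive pluripotency genes went the other way, with 4 of 12 higher at Tsix-stop D15 and 7 of 12 lower at E8 D7. In the other comparisons fewer were called, 2 lower at E8 D15 and 1 higher and 1 lower at Tsix-stop D0. The core and primed pluripotency list summed to 2176 and 2513 CPM in wt against 3497 and 3074 CPM in KO at Tsix-stop D15. At E8 D7 it summed to 3440 and 3281 TPM in wt against 1881 and 1865 TPM in KO. Of 8 trophoblast genes, 2 were lower at Tsix-stop D0 and 3 at Tsix-stop D15, Plet1 among them on both days, while 4 were higher and 1, Ascl2, was lower at E8 D7, and 5 were higher at E8 D15. Plet1 was not called in E8 cells. At Tsix-stop D0 visceral endoderm markers summed to between 10.8 and 12.4 CPM in all 5 libraries, while other lists differed between wt and KO. Neural markers summed to 455 and 441 CPM in wt against 259 and 248 CPM in KO, with Nes and Tubb3 lower of 5 tested. Epithelial markers summed to 674 and 702 CPM in wt, and to 460 and 527 CPM in KO, with 4 of 9 lower and 1 higher. Targets of TGF-beta and BMP summed to 1015 and 1068 CPM in wt, and to 559 and 693 CPM in KO, with 4 of 12 lower and 1 higher. Of 13 fibroblast genes Vim and Thy1 were lower and Pdgfrb higher. The library labelled CRISPR control also lay near KO in its D0 sums for neural (215 CPM), epithelial (494 CPM) and TGF-beta and BMP (533 CPM) genes. Its visceral endoderm sum at D15, 50.5 CPM, did so too. Those sums therefore do not tell KO from the control. For core and primed pluripotency at D15 the control, at 2427 CPM, lay between the wt libraries instead. Its naive pluripotency sum at D15, 2007 CPM, lay nearer to wt (1913 and 1995 CPM) than to KO (3926 and 2839 CPM). Its epithelial sum at D15, 3260 CPM, lay above both wt (2610 and 2772 CPM) and KO (1294 and 1879 CPM). The part of these lists in the level of the 24 genes was not tested.

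The 24 genes lay on 17 chromosomes, with 2 on the X (Kdm6a and Nudt11). Calcoco2 and Copz2 lie 737 kb apart on chromosome 11 and share that chromosome with Myl7. Within 300 kb of 23 of the 24 genes lay 206 other genes with a group mean of 5 or more in at least 1 group, and 0 of them passed the same fold in the same direction in all 4 comparisons. Few genes did so anywhere (20 lower of 9060 and 4 higher of 9120 at the minimum level), so nothing is read from this 0. In 3 of the 4 comparisons 4 neighbours passed the fold: Lamb3 beside G0s2, Pgam2 beside Myl7, Wfdc2 beside Pltp and Itprip beside Gsto1. The share of all genes past the fold in 3 comparisons was not counted. By GENCODE vM21, Lamb3 overlaps G0s2 on the other strand, and Ctsa overlaps Pltp, Cfap43 overlaps Gsto1 and Pde6h overlaps Arhgdib in the same way, while Fbxo24 overlaps Pcolce on its own strand. The library kit did not mark strand and the counting is not stated to use it, so reads in these overlaps cannot be assigned, and Ctsa was the partner with the highest level (185 CPM on average).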

How the data were processed

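The authors deposited unnormalized estimated counts of each gene for Tsix-stop cells, with separate counts of reads over the SNPs of each allele, and TPM, in total and by allele, for E8 cells. Per the labels, reads were mapped to mm10 with TopHat2 2.1.1 and Bowtie2 2.4.5; annotation and strand are not given in the sources used here. The days of the E8 libraries are those of the labels, which differ from the study's text.

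CPM used the column totals, and 537 repeated E8 symbols were summed. Estimated counts were rounded, since 7.1% were not whole. Genes with 2.5 CPM or TPM in at least 2 libraries were tested with all 8 wt and KO libraries of a line in 1 model, with edgeR 4.0.16 (quasi-likelihood, TMM) or limma 3.58.1 (trend, log2(TPM + 1)) in R 4.3.3, at a Benjamini-Hochberg FDR of 0.1 and 2-fold. Alleles were tested in edgeR on genes with a mean of 20 SNP reads, with library as a term, and in limma on the log2 ratio of the alleles + 1 TPM, after centring on the median autosomal gene, for genes that also had 2.5 TPM over both alleles in 2 libraries. Before centring the median BL6 share of autosomal genes was 16.9% to 19.9%. Intervals are 95% Wilson intervals and cover counting error only. DESeq2 1.42.0 and the alternatives of the closing section were run beside these. The fits were tested on simulated data.

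The genes, the lists and the tests were chosen with earlier results of these data known. Named are Kdm6a, the 12 genes of each direction with the largest weakest log2 ratio, those on a list, on the X or called for alleles, and the 2 nearest each limit on both sides.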

Additional observations from a re-analysis of the deposited data

Results flagged for a closer look

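The KO effect on the non-cast to cast ratio of Arhgdib differed between the Tsix-stop days, by 2.14 ± 0.55 (SE) on the log2 scale at D15 relative to D0 (edgeR interaction term, adjusted p = 0.037), where 2.28% of 12298 genes were called. At D0 the non-cast share was 73.7% (95% Wilson interval 66.8 to 79.6) and 71.9% (65.7 to 77.4) in wt and 36.4% (15.2 to 64.6) and 50% (29.9 to 70.1) in KO, from 11 and 20 SNP reads in KO. At D15 it was 48.3% (43.4 to 53.3) and 45.9% (40.9 to 50.9) in wt and 52.4% (40.3 to 64.2) and 56.2% (47.3 to 64.7) in KO. The library labelled CRISPR control had 35.7% (16.3 to 61.2) at D0, from 14 SNP reads. Groups of 2 libraries are too small to look for single libraries that stand apart.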

How the results depend on the processing

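The choice of wt libraries and of limits decided how many genes met the rule. With the CRISPR control added to wt, 13 genes were lower (12 of the 20) and 0 higher. With it in place of wt, an alternative chosen after seeing the data, 2 were lower (1 of the 20) and 3 higher (0 of the 4). With ratios of 0.5 and 2, 3 and 0 genes remained of the 20 and 4, with a minimum of 10 it was 10 and 2, and with a minimum of 2.5 it was 29 and 6. Under TMM library sizes, E8 values rescaled by their median ratio, added constants of 0.1 and 1, and TPM for Tsix-stop cells, between 19 and 21 genes were lower and 3 or 4 higher. Leaving out each of 16 libraries gave 18 to 24 lower genes and 3 to 4 higher; Aqp3 was kept in 12 of the 16, Cpne8 in 13, and Kdm6a was lost without Tsix-stop KO replicate 2 at D0 or D15. Leaving out a library gave 8 to 11 of the genes called for the day in Tsix-stop cells, 5 to 6 in E8, and for alleles 3 to 4 at Tsix-stop D0, 1 to 1 at Tsix-stop D15, 5 to 6 at E8 D7 and 3 to 5 at E8 D15. The E8 D15 allele calls also went from 5 to 3 at a pseudocount of 0.1 (chosen after seeing the data) and to 3 at a minimum of 10 TPM; Dnmt3a and Rcsd1 stayed called at 0.1. Of 362 single values under alternatives, 343 stayed called with their sign, 19 were no longer called and 0 reversed; the cause was not tested. Over all genes the day calls were 6825 of 20483 without a filter in Tsix-stop cells and 348 at a pseudocount of 0.1 in E8, against 4131 and 177, and the E8 D7 allele calls were 848 of 8535 at 10 TPM, against 1301.

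Replicate numbers were not taken as pairs: the labels do not say what they mark, and the correlations of same-numbered libraries ran from -0.162 to 0.2. The highest was that of Tsix-stop KO at D0 and D15, where a number may mark a clone. With the replicate block, the genes called were 9 and 6 for the day in Tsix-stop and E8 cells, 4 and 1 for alleles at Tsix-stop D0 and D15, and 6 and 5 at E8 D7 and D15, the counts without the block. The precision of E8 values cannot be set, since their depth is unknown.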
